A study of Mus musculus with 6 samples.

Results

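Apolipoprotein genes were examined in liver tumors of mice with and without Nr2e3, which encodes an orphan nuclear receptor. The members were the 10 genes Apoa1, Apoa2, Apoa4, Apoa5, Apob, Apoc1, Apoc3, Apoe, Apoh and Apom, found by symbol among the 24063 genes of the count table, and all 10 were counted in all 6 libraries. RNA came from 3 WT and 3 Nr2e3-/- tumor samples of male mice, each sequenced as its own library. The labels give the strain as C57BL/6 for both groups, and the study's methods give C57BL/6J for WT. Mice of both groups had received the liver carcinogen diethylnitrosamine (DEN) at 25 mg per kg by intraperitoneal injection at 15 days of age, and were sampled at 24 weeks. No tumor-free liver or untreated group was analysed here, so the values describe tumors of both genotypes. The labels do not say whether tumors came from separate mice, and the p-values then measure the spread between these 6 samples.

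Apolipoproteins are the protein part of lipoproteins, the particles that carry cholesterol, phospholipid and triglyceride in blood, and hepatocytes make most of them. ApoB is the scaffold of very low density lipoprotein (VLDL), ApoA-I and ApoA-II are the main proteins of high density lipoprotein (HDL), and the smaller exchangeable apolipoproteins move between particles and set how fast lipases and receptors act on them. Their genes are transcribed at high rates in liver, under hepatocyte nuclear receptors such as HNF4A.

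The 10 genes lie on 6 chromosomes, and 6 of them sit in clusters. Coordinates are of GRCm38 (GENCODE M21), the build the authors aligned to. Apoa1 (46228580 to 46230466), Apoc3 (46232933 to 46235636), Apoa4 (46240696 to 46243459) and Apoa5 (46268633 to 46271919) share 43.3 kb of chromosome 9, on which Apoc3 is the only gene of the 4 read from the minus strand. This cluster is 13.7 Mb from Nr2e3 on the same chromosome. Apoc1 (19689481 to 19692660) and Apoe (19696109 to 19699188) are 3449 bases apart on chromosome 7, both on the minus strand. The others stand alone, with Apoa2 on chromosome 1 (171225054 to 171226379), Apoh on chromosome 11 (108343354 to 108414396), Apob on chromosome 12 (7977648 to 8016835) and Apom on chromosome 17 (35128997 to 35132050). Annotated genes on the opposite strand overlap Apoa4 (Gm10680 and Gm47528), Apoa5 (Gm47544) and Apoh (Prkca). The strand setting of the counting is not given in the sources used here, so reads of such pairs cannot be told apart.

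Stretches just before the first annotated start of 4 members are printed from the RefSeq promoter table (GRCm38.p6), each on the plus strand and 5′ to 3′, since 3 of them are neighbours in the chromosome 9 cluster with unlike values below, and Apob holds the same motif as Apoa5 at the same distance. They are chr9:46228430-46228579 for Apoa1, chr9:46240594-46240695 for Apoa4, chr9:46268458-46268607 for Apoa5 and chr12:7977498-7977647 for Apob. Capitals mark TATAAA, a match to the TATA box.
Apoa1: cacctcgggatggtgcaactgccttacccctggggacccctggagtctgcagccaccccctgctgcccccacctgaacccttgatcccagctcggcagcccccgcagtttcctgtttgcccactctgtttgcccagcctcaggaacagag
Apoa4: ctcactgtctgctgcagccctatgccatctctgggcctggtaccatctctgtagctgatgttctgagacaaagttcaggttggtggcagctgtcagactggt
Apoa5: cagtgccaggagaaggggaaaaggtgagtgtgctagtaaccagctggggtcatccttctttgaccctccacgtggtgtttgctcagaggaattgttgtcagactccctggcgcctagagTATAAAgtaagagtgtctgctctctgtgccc
Apob: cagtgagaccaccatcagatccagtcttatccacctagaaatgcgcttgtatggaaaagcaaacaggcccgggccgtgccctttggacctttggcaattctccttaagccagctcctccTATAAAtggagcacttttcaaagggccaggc
In Apoa5 and Apob the 6 letters end 25 bases before the end of the stretch, and the stretches of Apoa1 and Apoa4 do not hold them. The table has 12 windows for 8 of the 10 members and none for Apoc1 and Apoc3. In the 250 bases before each start, on either strand, TATAAA was found in 5 of the 12 windows, against 12.4% of all 32851 windows. These windows belonged to 4 of the 8 members, so a gene can count more than once, and the difference was not tested. AAGTCA, a motif that NR2E3 is known to bind, was found in 0 of the 12 against 13.1% of all windows. AGGTCA, the core motif of many nuclear receptor sites, was found in 2 of the 12 against 14.0%, and CAAAGTCCA, an HNF4A site, in 0 of the 12 against 0.384%. No motif searched contains another, and a match is a description of letters only.

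Library totals lay between 25250090 and 28690279 counts in WT and between 15376261 and 28336305 in Nr2e3-/- tumors. Nr2e3 itself had 0 counts in all 6 libraries, and so gave no check of the genotypes. Counts of calls depended most on the library of Nr2e3-/- replicate 1. With all 6 libraries 13 of 13572 genes passed an adjusted p-value of 0.05 in edgeR, and without it 3022 did. This library was the smallest, with 15376261 counts. The SD over genes of its log2 difference was 0.505 to 0.596 from the WT libraries. It was 0.798 from Nr2e3-/- replicate 2 and 0.630 from Nr2e3-/- replicate 3, and the reason was not tested. Hepatocyte markers were high in every library, with Alb, the albumin gene, at 8.02% to 13.4% of the counts.

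Apolipoprotein RNA took a sizeable part of every library. The 10 genes together held 5.07%, 5.45% and 5.18% of the counts in the WT libraries and 4.76%, 4.78% and 4.64% in the Nr2e3-/- libraries. The groups did not overlap, and averaged 5.23% with an SD of 0.20 for the 3 WT libraries and 4.73% with an SD of 0.073 for the 3 Nr2e3-/- libraries, a difference of -0.15 on the log2 scale. This difference depended on the denominator, since it was -0.03 when the libraries were scaled by TMM (edgeR's trimmed mean of M-values). With TMM the summed values overlapped, at 49124 to 52946 CPM in WT and 48442 to 50277 CPM in Nr2e3-/- libraries. The separation of shares was not particular to these genes. Alb alone took 10.6% to 13.4% in WT and 8.02% to 10.1% in Nr2e3-/- libraries, a difference of -0.38 on the log2 scale. Apoe, Apoa1, Apob and Apoa2 held between 78.8% and 84.1% of the counts of the 10 genes. In bulk tumors, fewer cells of a type and less RNA per cell cannot be told apart.

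**Figure D1:**
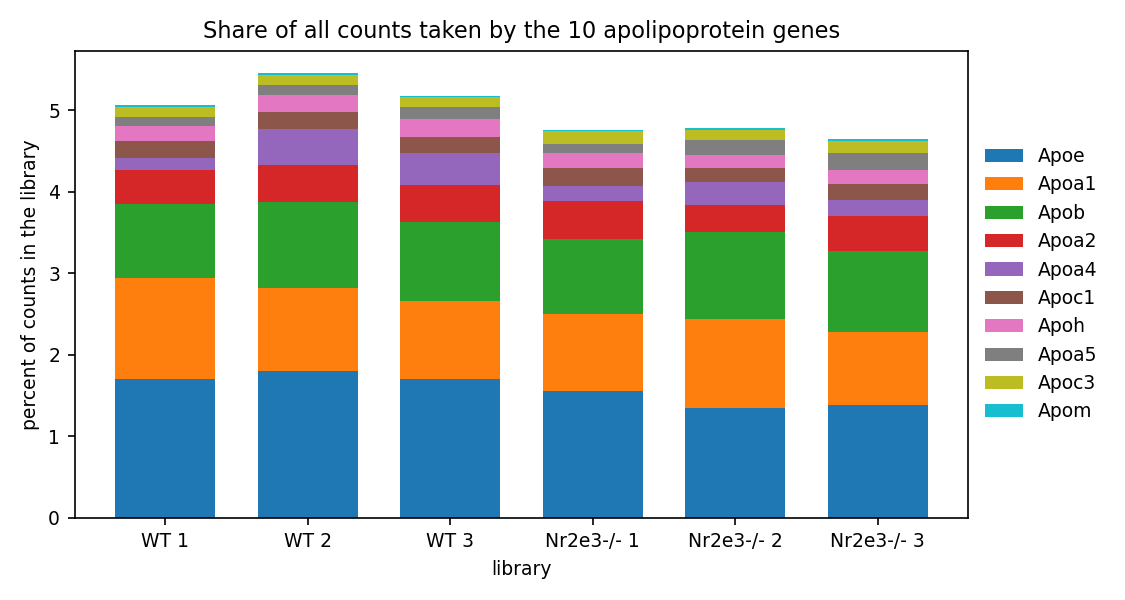
Percent of all counts (y axis) taken by each of the 10 apolipoprotein genes (stacked colors) in each library (x axis). The stacks reach 5.07% to 5.45% in WT and 4.64% to 4.78% in Nr2e3-/- tumors, with Apoe as the largest piece in each.

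Levels between genes were compared per length, as TMM-normalized CPM (counts scaled to a common library size by edgeR) per kb of the principal GENCODE transcript. Apoe was highest, with 11865 ± 506 CPM per kb in WT against 10552 ± 638 CPM per kb in Nr2e3-/- tumors (mean ± SD, n = 3 each). Apoa1 followed with 9958 ± 1484 in WT and 9824 ± 1106 in Nr2e3-/- tumors, and Apoa2 with 8186 ± 536 and 8174 ± 1277 (SD, n = 3 each). Over the 6 libraries the ranges of Apoe and Apoa1 met, as did those of Apoa1 and Apoa2. Every value of Apoe was above every value of Apoa2. Within each library Apoa1 was above Apoa2, and Apoe was below Apoa1 only in Nr2e3-/- replicate 2. The sequence of the 3 is not resolved, since it depended on how length was taken. When length was taken as all annotated exons merged, Apoa1 ranked 1 and Apoe 3.

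Apoc1 was next with a WT mean of 3706 CPM per kb, below each library's value of the first 3 genes, and Apoc3 followed with 2247. Apoa4 (1745) had a range that met those of Apoc3 and Apoh (1630), and with merged exons Apoc3 ranked below both others in WT. Apob came at 678, Apoa5 at 484 and Apom at 230, all WT means in CPM per kb. Apob and Apoa5 overlapped across libraries, whereas every library's value of Apom was below every value of Apoa5. In Nr2e3-/- tumors the order was the same except that Apoh (1500) stood above Apoa4 (1282). With merged exons the Nr2e3-/- means were 1467 for Apoc3, 1282 for Apoa4 and 1120 for Apoh, so the sequence of these genes is not resolved.

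**Figure D2:**
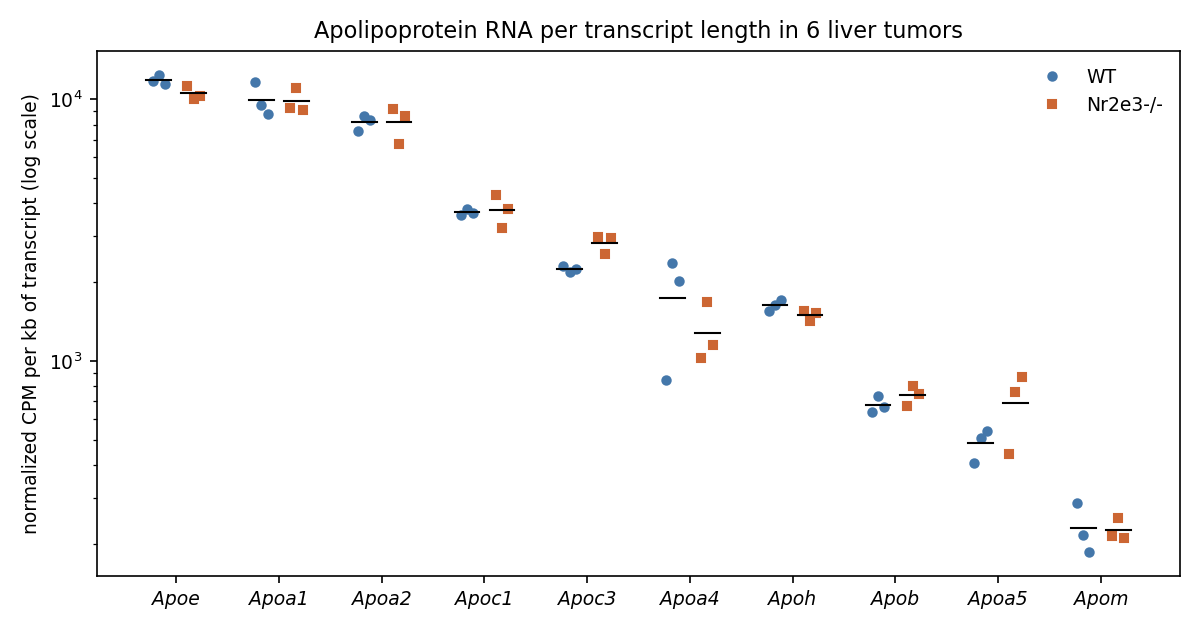
TMM-normalized CPM per kb of principal transcript (y axis, log scale) of each gene (x axis, ordered by WT mean) in WT (circles) and Nr2e3-/- (squares) libraries, with horizontal bars at group means. Values run from 186 for Apom to 12432 for Apoe, and only Apoc3 and Apoe have groups that do not overlap.

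The comparison of Nr2e3-/- with WT tumors asks which RNAs differ between the genotypes. The sources used here do not say whether the groups were littermates, so genotype and colony cannot be told apart. Among the 10 apolipoprotein genes, 0 had an adjusted p-value under 0.05 in edgeR's quasi-likelihood F test, against 0.0958% of the 13572 genes tested. At an unadjusted p-value under 0.05, 1 member passed in the higher direction, Apoc3, where 11.8% of all genes did, and 0 passed in the lower direction, where 9.72% did. The median log2 fold change of the members was -0.011, with 4 above and 6 below 0, beside 0.0073 over all genes tested. The median size of the change, regardless of sign, was 0.12 for the members and 0.25 for all genes. For 7 members the log2 fold change was within 0.2 of 0, and for 8 members the 95% interval stayed between a 2-fold decrease and a 2-fold increase. The exceptions with wider intervals were Apoa4 and Apoa5.

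**Figure D3:**
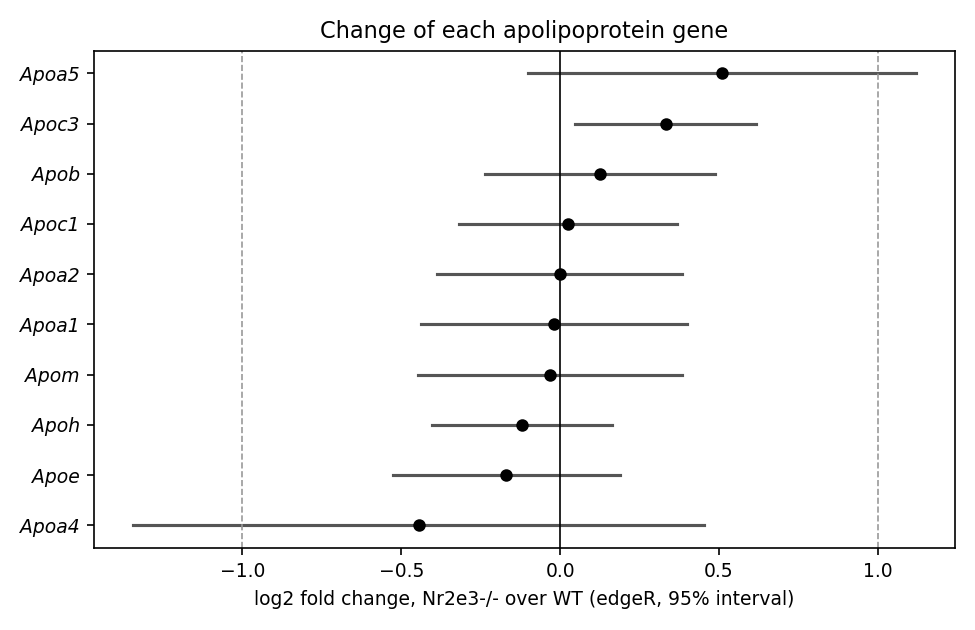
Log2 fold change of each gene in Nr2e3-/- over WT tumors (x axis; points) with its 95% interval from edgeR (lines); dashed lines mark a 2-fold change either way. The interval of Apoc3 lies above 0 (0.05 to 0.62), those of the other 9 genes include 0, and those of Apoa4 and Apoa5 reach past a 2-fold change.

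The HDL genes Apoa1, Apoa2 and Apom had fitted changes close to 0, each with an interval that reached past 0.3 on both sides. Apoa1, which activates the cholesterol-esterifying enzyme LCAT, had 12026, 9823 and 9070 normalized CPM in the WT libraries and 9604, 11486 and 9414 in the Nr2e3-/- libraries. The groups overlapped widely, and the highest and the lowest value were both WT. edgeR fitted a log2 fold change of -0.02, with a standard error of 0.18, a 95% interval from -0.44 to 0.40 and an adjusted p of 0.958.

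Apoa2, the second most abundant HDL protein, had 3937, 4481 and 4303 CPM in WT and 4750, 3489 and 4464 CPM in Nr2e3-/- libraries. Here too the Nr2e3-/- values stood on both sides of the WT values. Its log2 fold change was -0.0021 (95% interval -0.39 to 0.38, adjusted p = 0.995 from edgeR), a sign that turned in several alternatives.

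Apom, a lipocalin that carries sphingosine 1-phosphate on HDL, was the least counted member, at 290, 219 and 189 CPM in WT and 217, 253 and 212 CPM in Nr2e3-/- libraries. WT replicate 1 had the highest value, and the Nr2e3-/- values all fell inside the WT range. The log2 fold change was -0.03 (95% interval -0.45 to 0.38, adjusted p = 0.925 from edgeR).

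Apob, whose protein forms the single large scaffold of each VLDL particle, had 8867, 10220 and 9246 CPM in WT and 9341, 11168 and 10382 CPM in Nr2e3-/- libraries. The groups overlapped, with WT replicate 2 above Nr2e3-/- replicate 1. The log2 fold change was 0.12 (95% interval -0.24 to 0.49, adjusted p = 0.656 from edgeR). An increase of more than 1.40-fold or a decrease below 0.848-fold lay outside this interval. Its size depended on single libraries and on the scaling, at 0.20 without Nr2e3-/- replicate 1, 0.065 without Nr2e3-/- replicate 2, 0.037 with upper quartile scaling and 0.014 with library totals alone, and none of these passed the test.

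Apoe, the ligand by which the liver takes up remnant particles, had 16478, 17504 and 16135 CPM in WT libraries. It had 15878, 14182 and 14514 CPM in Nr2e3-/- libraries, each below every WT value (two-sided exact permutation p = 0.1, below which a design of this size cannot go). Apoe was the 1 member whose groups did not overlap in the lower direction, as was the case for 12.9% of all genes tested. The change was small, -0.17 on the log2 scale (95% interval -0.53 to 0.19, adjusted p = 0.530 from edgeR), or 11.1% less in fold terms. It was -0.28 when libraries were scaled by their totals alone. Macrophages also express Apoe, and 11 tested macrophage markers had log2 fold changes from 0.09 to 0.69 with 0 at an unadjusted p-value under 0.05. Their summed level was 375 to 481 CPM in WT and 344 to 786 CPM in Nr2e3-/- libraries, and their part in the Apoe value was not tested.

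The members with the largest fitted changes in size, Apoa5, Apoa4 and Apoc3, lie in the chromosome 9 cluster. They did not share a direction, since Apoa4 was lower, and Apoa1 in the same cluster had -0.02. Apoc3, an inhibitor of lipoprotein lipase and of remnant uptake, had 1212, 1151 and 1183 CPM in WT and 1562, 1348 and 1553 CPM in Nr2e3-/- libraries. Every Nr2e3-/- value was above every WT value, and Apoc3 was the 1 member to do so in the higher direction, where 13.9% of all genes did. The WT values varied by only 2.57% (coefficient of variation), the least of any member. Its log2 fold change was 0.33 (standard error 0.12, 95% interval 0.05 to 0.62), or 25.9% more, with an unadjusted p = 0.0282 and an adjusted p = 0.185, both from edgeR. It did not pass the adjustment over all genes. With 1 library left out the unadjusted p was 0.0488 without Nr2e3-/- replicate 1, 0.00914 without Nr2e3-/- replicate 2, and between 0.0680 and 0.0918 without Nr2e3-/- replicate 3 or any of the 3 WT libraries, while the log2 fold change stayed between 0.30 and 0.40 (edgeR). With limma-voom and sample quality weights the adjusted p-value was 0.0489, in a fit where 17.4% of all genes passed. Upper quartile scaling gave an unadjusted p of 0.0946 and library totals alone 0.122, both from edgeR.

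Apoa5, an activator of lipoprotein lipase that is made almost only in liver, had 1022, 1278 and 1355 CPM in WT and 1104, 1913 and 2180 CPM in Nr2e3-/- libraries. Nr2e3-/- replicates 2 and 3 were above all WT values, and replicate 1 was inside the WT range. This was the largest fitted change among the members, 0.51 on the log2 scale (standard error 0.26, 95% interval -0.10 to 1.12, adjusted p = 0.294 from edgeR). Without Nr2e3-/- replicate 1 it was 0.76 (adjusted p = 0.0221 from edgeR), in a fit where 21.8% of all genes passed. Without Nr2e3-/- replicate 3 it was 0.31 (adjusted p = 0.640 from edgeR).

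Apoa4, a lipid-responsive apolipoprotein that mouse liver as well as intestine makes, had 1533, 4289 and 3677 CPM in WT and 1854, 3039 and 2086 CPM in Nr2e3-/- libraries. It was the most variable member in WT, with a coefficient of variation of 45.7%, and WT replicate 1 had the lowest value of all 6 libraries. The log2 fold change was -0.44 (95% interval -1.34 to 0.45, adjusted p = 0.513 from edgeR). Without WT replicate 1 it was -0.77 (unadjusted p = 0.0204, adjusted p = 0.276 from edgeR), without WT replicate 2 it was -0.16, and without Nr2e3-/- replicate 1 it was -0.30. Of 8 enterocyte markers, 2 passed the filter on low counts, Fabp2 with a log2 fold change of -0.47 and Vil1 with -2.09, and 3 others were at 0 in every library. The summed enterocyte level was 65.4 to 115 CPM in WT and 47.0 to 71.2 CPM in Nr2e3-/- libraries, and its part in the Apoa4 value was not tested.

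Apoc1, which inhibits lipoprotein lipase and the uptake of remnants, had 1919, 2033 and 1962 CPM in WT and 2287, 1708 and 2027 CPM in Nr2e3-/- libraries. The Nr2e3-/- values spread to both sides of the narrow WT range. Its log2 fold change was 0.03 (95% interval -0.32 to 0.37, adjusted p = 0.927 from edgeR), and the sign was negative with upper quartile scaling and with library totals.

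Apoh, known as β2-glycoprotein I, a phospholipid-binding protein linked more to coagulation than to lipid transport, had 1839, 1947 and 2035 CPM in WT and 1846, 1691 and 1819 CPM in Nr2e3-/- libraries. WT replicate 1 lay between the Nr2e3-/- values, so the groups overlapped. The log2 fold change was -0.12 (95% interval -0.40 to 0.16, adjusted p = 0.576 from edgeR). With library totals alone in place of TMM the groups did not overlap, and the log2 fold change was -0.23.

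**Figure D4:**
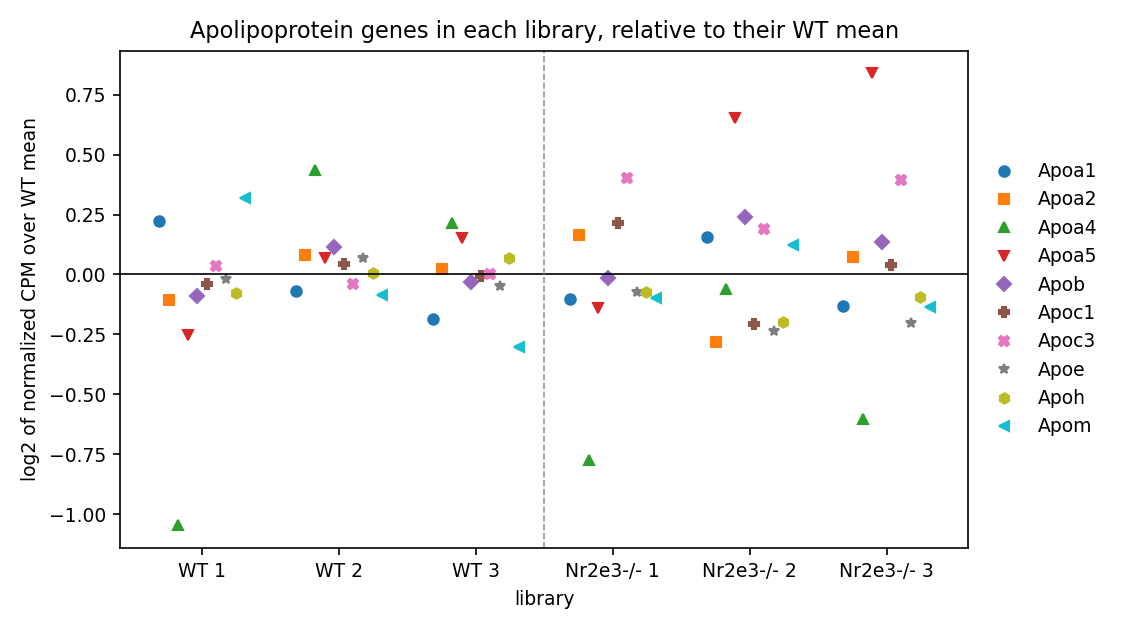
Log2 of normalized CPM over the gene's WT mean (y axis) for each gene (colored symbols) in each library (x axis). Apoa4 is low in WT replicate 1 and in Nr2e3-/- replicates 1 and 3, Apoa5 is high in Nr2e3-/- replicates 2 and 3, and Apoc3 is above 0 in the 3 Nr2e3-/- libraries.

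Profiles over the 6 libraries were compared between all pairs of members. As a description, the root mean square difference between mean-centred log2 CPM profiles was smallest for Apoa2 and Apoc1 (0.049), on different chromosomes, followed by Apoa1 and Apom (0.063) and by Apoe and Apoh (0.072). It was 0.12 for the chromosome 7 neighbours Apoc1 and Apoe. Between adjacent genes of the chromosome 9 cluster it was 0.26 for Apoa1 and Apoc3, 0.65 for Apoc3 and Apoa4, and 0.59 for Apoa4 and Apoa5. The largest was 0.67, for Apoa4 and Apom.

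Ratios of counts within a library do not depend on its scaling. The ratio of Apoc3 to Apoa1 was 0.101, 0.117 and 0.130 in WT and 0.163, 0.117 and 0.165 in Nr2e3-/- libraries, which overlapped (two-sided exact permutation p = 0.2). Among 7 ratios tested in this way, the p-values were between 0.2 and 1 where the smallest possible is 0.1. The ratio of Apoc3 to Apoe, chosen after their values were seen and so not tested, was 0.0735, 0.0658 and 0.0733 in WT and 0.0984, 0.0950 and 0.107 in Nr2e3-/- libraries. The values of the 2 genotypes did not overlap, which was fixed by this choice. Apoc3 was above and Apoe below every WT value in all 3 Nr2e3-/- libraries.

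The 5 genes whose profile was most like that of Apoa5, the member with the largest fitted change, were Hmga1, Sirt1, 5730508B09Rik, Bcor and Rcl1. Their root mean square differences from it were 0.089 to 0.099 on the log2 scale over the 6 libraries, and their log2 fold changes were 0.43 to 0.55. Fold changes near that of Apoa5 were fixed by this choice.

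Genes that act with the apolipoproteins were examined as 6 lists of 96 symbols in all, 90 of which passed the filter on low counts. Of these, 16 had an unadjusted p-value under 0.05 in the higher and 15 in the lower direction, against 11.8% and 9.72% of all genes, and 0 had an adjusted p-value under 0.05 in edgeR. With DESeq2 17 of them had one, where 5.81% of all genes did. With limma-voom 27 did, against 17.4% of all genes. Without Nr2e3-/- replicate 1 edgeR gave 32, against 21.8% of all genes.

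Genes of lipoprotein assembly and secretion had a median log2 fold change of -0.04 over 14 genes, with 2 higher and 2 lower at an unadjusted p-value under 0.05. Mttp, which loads lipid onto ApoB and was named after its value was seen, had -0.02. P4hb, the other subunit of that transfer protein, had 0.31 (adjusted p = 0.231 from edgeR), Mia2, a factor of export from the endoplasmic reticulum, had -0.35 (adjusted p = 0.140 from edgeR), and Soat2, which makes cholesteryl esters, had -0.67 (adjusted p = 0.144 from edgeR).

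Plasma enzymes and transfer proteins had a median of -0.08 over 12 genes, with 1 higher and 0 lower. The 1 was Angptl4, an inhibitor of lipoprotein lipase, with 75.5, 81.4 and 95.1 CPM in WT and 156, 145 and 220 CPM in Nr2e3-/- libraries. Its groups did not overlap, and edgeR fitted 1.05 on the log2 scale, with a standard error of 0.18 and an adjusted p of 0.0930.

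Receptors and endocytosis genes had a median of -0.13 over 14 genes, with 1 higher and 4 lower. Vldlr, a receptor for triglyceride-rich particles, had -2.33 (adjusted p = 0.109 from edgeR), from 4.72 to 5.21 CPM in WT and from 0.334 to 2.05 CPM in Nr2e3-/- libraries. Cd36, a fatty acid transporter, had -0.81 (adjusted p = 0.0963 from edgeR), and Sort1, a sorting receptor that binds ApoB, had -0.78 (adjusted p = 0.0984 from edgeR).

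Lipid efflux transporters had a median of -0.28 over 7 genes, with 1 higher and 2 lower. Abca1, which hands cholesterol and phospholipid to ApoA-I in the first step of HDL formation, had 339, 301 and 272 CPM in WT and 403, 685 and 594 CPM in Nr2e3-/- libraries. All 3 Nr2e3-/- values were above all WT values, and the fitted difference was 0.88 on the log2 scale (edgeR, adjusted p = 0.109). Abcg5 and Abcg8, which together form the transporter that moves sterols into bile, had -0.69 (adjusted p = 0.0997 from edgeR) and -0.91 (adjusted p = 0.0936 from edgeR), also without overlap.

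Regulators of apolipoprotein genes had a median of -0.06 over 26 genes, with 5 higher and 6 lower. Of these 11, the 3 with the largest values in size were Srebf1, a factor of lipid synthesis, with -1.14 (adjusted p = 0.219 from edgeR), Cebpb, a factor of the acute phase, with 1.04 (adjusted p = 0.131 from edgeR), and Apobec1, the enzyme that edits Apob RNA, with 0.90 (adjusted p = 0.171 from edgeR). Leaving out 1 library moved 2 of these by over 1.5 times, Srebf1 to -1.85 (edgeR, adjusted p = 0.00778) without Nr2e3-/- replicate 1, and Apobec1 to 0.58 without Nr2e3-/- replicate 2. Gene counts do not show whether Apob RNA was edited. Hnf4a, a main activator of several members, had 0.50 (adjusted p = 0.174 from edgeR) and was named after its value was seen.

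Other apolipoprotein-named and HDL-carried genes had a median of 0.37 over 17 genes, with 6 higher and 1 lower. The serum amyloid A genes Saa1 and Saa2, whose acute phase proteins ride on HDL, had fitted differences of 4.54 and 5.34 on the log2 scale (edgeR, adjusted p = 0.0930 for each). Saa1 had 49.3, 28.0 and 19.9 CPM in WT and 138, 1028 and 1090 CPM in Nr2e3-/- libraries, so that Nr2e3-/- replicate 1 was lowest of its genotype and still above WT. Saa3 had 1.47 (adjusted p = 0.196 from edgeR), and 0.95 without Nr2e3-/- replicate 3. Apoc4, which lies between Apoc1 and Apoc2 in the chromosome 7 cluster, had -0.0017 and Apoc2, the activator of lipoprotein lipase, had -0.19 (adjusted p = 0.635 from edgeR).

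**Figure D5:**
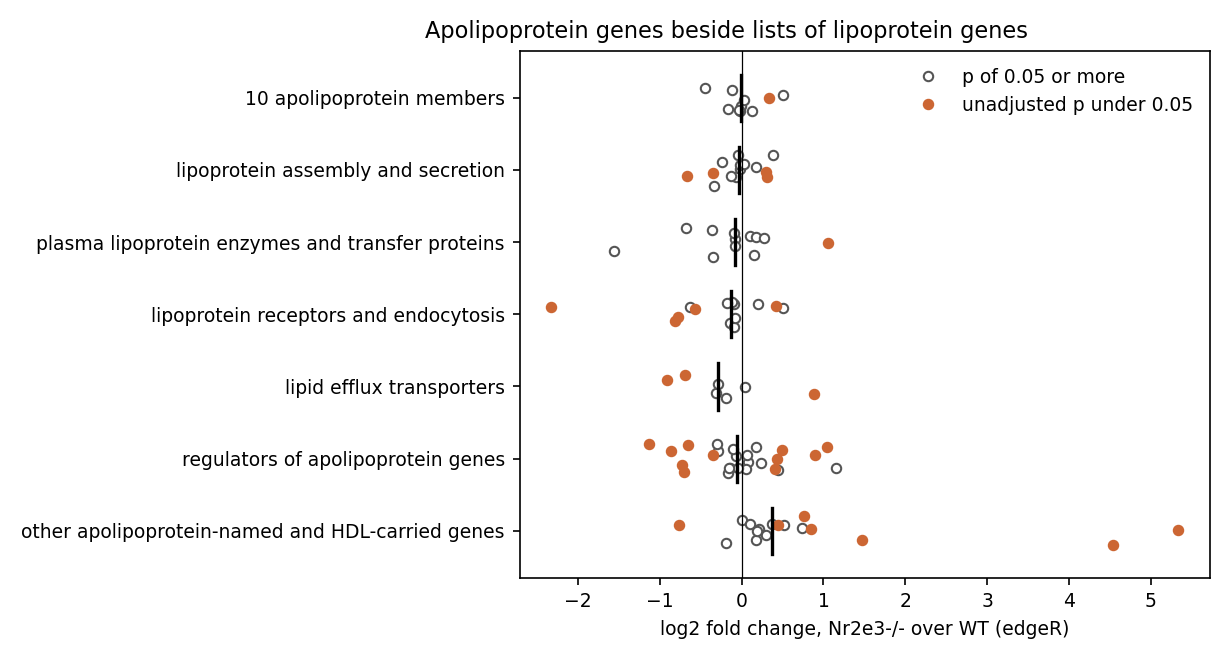
Log2 fold change in Nr2e3-/- over WT tumors (x axis) of the 10 apolipoprotein genes and of 6 lists of lipoprotein genes (y axis); filled points have an unadjusted p-value under 0.05 in edgeR, and vertical bars are medians, without a test of the lists. The members lie between -0.44 and 0.51, while genes of the lists reach from -2.33 (Vldlr) to 5.34 (Saa2).

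Markers of other cell types were read over the same libraries. The hepatocyte list had a median of 0.32 over 9 tested genes, with 2 higher, Fgb and Serpina1c, and 0 lower at an unadjusted p-value under 0.05. Its genes went both ways, with 5 above 0 and 4 below. Those below 0 were Cyp2e1 (-0.37), Alb (-0.27), Ttr (-0.07) and Hpd (-0.01). The median was 0.29 for macrophage markers and -0.32 for stellate cell and fibroblast markers, with 0 genes of either list at that threshold. Biliary markers had a median of 0.67 over 5 genes, with 2 higher, Spp1 (1.68) and Epcam (1.58), and 0 lower. The others went both ways, with Krt19 at 0.67, Sox9 at -0.21 and Krt7 at -0.29. Spp1 and Epcam each overlapped between groups, and Epcam in Nr2e3-/- replicate 1 (1.79 CPM) was below the WT values (1.80 to 2.37 CPM). Endothelial markers had a median of 0.09 over 6 genes, with 1 higher, Lyve1 (0.82), and 1 lower, Kdr (-0.61). The list of lymphocyte and neutrophil markers had a median of -0.48 over 8 genes that went opposite ways, with the neutrophil genes S100a8 (2.65) and S100a9 (2.30) higher and the B cell genes Ms4a1 (-1.49) and Cd79a (-1.36) lower. S100a8 and S100a9 overlapped between groups, with Nr2e3-/- replicate 1 (0.728 and 1.26 CPM) inside the WT range. Ms4a1 and Cd79a had few counts, at 0.614 to 0.846 and 0.381 to 0.576 CPM in WT libraries. In Nr2e3-/- libraries they had 0.108 to 0.397 and 0.162 to 0.199 CPM. These marker genes were named after their values were seen, and 0 of the 49 tested over the 7 lists had an adjusted p-value under 0.05 in edgeR. The summed biliary level was 57.0 to 118 CPM in WT and 68.9 to 428 CPM in Nr2e3-/- libraries. The part of these cells in the values of the apolipoprotein genes was not tested.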

How the data were processed

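RNA of 3 WT and 3 Nr2e3-/- liver tumor samples was analysed. The authors aligned single-end reads to mm10 (GRCm38) with TopHat and deposited raw read counts per gene from featureCounts. Normalized values and a comparison (fold changes and p-values) that they also deposited were not used. Members and gene lists were chosen with earlier results of these data known, and lists were compiled from general knowledge. DEN dose, age and time point come from the study's methods and legends.

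Genes were filtered with filterByExpr (minimum count 10, total 15), normalized by TMM and tested two-sided with edgeR 4.0.16 in R 4.3.3, with Benjamini-Hochberg adjustment over 13572 genes. Member counts ranged from 3281 to 517386 per library, so counting error was at most 1.75%. Alternatives used DESeq2 1.42.0, limma 3.58.1, other scalings and filters, a replicate block, and each library left out. The tests were checked on simulated data. Named genes were the members and, per list, up to 3 with the largest change at an unadjusted p-value under 0.05, plus cluster neighbours (Apoc2, Apoc4) and the genes most like Apoa5. Cell type markers and genes marked as such in the text were named after their values were seen.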

Additional observations from a re-analysis of the deposited data

How the results depend on the processing

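The directions for Apoa4, Apoa5, Apob, Apoc3, Apoe and Apoh held in all 14 alternatives, from 0.22 to 0.40 on the log2 scale for Apoc3 and from -0.28 to -0.13 for Apoe. The number of members with an unadjusted p-value under 0.05 was 0 with upper quartile scaling, 0 with library totals alone and 2 with limma-voom, against 1 in the report. The shares of all genes were 21.2%, 22.4% and 36.7%, against 21.5%. With a library left out the number was 0 to 2, the 2 without Nr2e3-/- replicate 1, where 37.7% of all genes passed. By adjusted p-value it was 1 with limma-voom (Apoc3), where 17.4% of all genes passed. It was 0 to 1 with a library left out, the 1 (Apoa5) without Nr2e3-/- replicate 1, where 21.8% did. The median log2 fold change of the members was -0.12 with library totals alone, where the median of all genes was -0.10. The log2 difference in the summed share was -0.20 over the other counts without Alb and -0.031 over TMM-scaled sizes, against -0.15. By adjusted p-value, the list genes numbered 17 with DESeq2, 27 with limma-voom and 2 without a filter, where 5.81%, 17.4% and 0.372% of all genes passed. They numbered 0 to 32 with a library left out, the highest without Nr2e3-/- replicate 1, where 21.8% of all genes passed. Members near 0 changed sign. Apoa2 had 0.0017 with RLE, 0.0089 with DESeq2, 0.022 with limma-voom and 0.0040 without a filter, and Apoc1 had -0.055 with upper quartile scaling and -0.081 with library totals. With a library left out, Apoa1 ran from -0.11 to 0.11, Apoa2 from -0.084 to 0.12, Apoc1 from -0.070 to 0.13 and Apom from -0.17 to 0.16. The cause of these changes was not tested.

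Deviations of same-numbered libraries correlated across genes at -0.08, 0.22 and 0.02. Differently numbered libraries were not compared, so these values cannot decide whether replicate numbers pair the samples. With the replicate block, 1 member had an unadjusted p-value under 0.05, Apoa5 in place of Apoc3, and 0 members and 0 of all genes passed by adjusted p-value, with 2438 genes at an unadjusted p-value under 0.05. With 3 libraries per group, the intervals of Apoe (-0.53 to 0.19) and Apob (-0.24 to 0.49) in the main fit both included 0.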
